A study of Mus musculus with 6 samples.

Results

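The SLAM family and Cd2 were followed in mouse bone marrow cells sorted for a renin-driven fluorescent reporter, set against the whole marrow from which they came. The 8 genes were Cd2, Cd48, Slamf1, Slamf6, Slamf7, Cd84, Ly9 and Cd244a, chosen by symbol with earlier results of these arrays known. All 8 had a value, out of 18193 named genes, and together they were read by 14 probe sets out of 34945 with a single gene symbol. Where a gene had several probe sets, the one with the highest mean over the 6 arrays stood for it. Probe sets were thus selected on that mean, which weighs both groups equally and was the only measured value the rule used, and the other probe sets are given beside it.

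The study sorted cells positive for green fluorescent protein (GFP) from marrow of adult mice, and the sorted samples (n = 3) were compared with presort samples (n = 3), the unsorted part of the same marrow. All animals, in both groups, were hemizygous for a transgene in which renin regulatory sequence drives GFP. They were males and females of 3 to 6 months, and femur marrow of 4 to 5 of them was pooled on each of 3 sorting days, so that every sorted array has a presort partner from its own pool. The scatter gates also removed erythrocytes and debris and kept single cells, steps the presort samples did not go through, and the GFP gate let in 0.1% of cells of animals without the transgene. Every sample was hybridised to 1 Affymetrix array that probes transcripts near their 3' end. Levels below are log2 of the deposited RMA intensity, a scale that ran from 3.28 to 15.23 on every array. The number of arrays limits the precision. In these bulk samples, fewer cells of a type and less RNA per cell cannot be told apart.

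SLAM family receptors are immunoglobulin superfamily proteins on the surface of blood cells. Most bind their own kind on a neighbouring cell, while Cd48, which sits on a lipid anchor and has no cytoplasmic tail, is the ligand that Cd2 and Cd244a share in mice. The tails of the SLAM receptors listed here, Cd48 aside, carry tyrosine switch motifs. Such motifs can recruit small adaptors, such as SAP, encoded by Sh2d1a, or inhibitory phosphatases, so that a receptor can activate or restrain the cell. In marrow the family is used to tell cell types apart, as with Slamf1 and Cd48 on stem and progenitor cells.

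Of the 8 genes, 5 rose in sorted samples (Cd2, Slamf6, Slamf7, Ly9 and Slamf1), 1 fell (Cd84) and 2 did not pass the test (Cd48 and Cd244a). The test was limma with Benjamini-Hochberg adjustment over all 18193 genes at 0.05. In the same comparison 14.5% of all genes were called higher, 18.1% lower and 32.6% in either direction. The median difference of the 8 genes was 1.03 on the log2 scale, against a median near 0 (-0.0021) over all genes. All sorted arrays lay above all presort arrays for the 5 genes that rose, as they did for 20.9% of all genes, and below them for Cd84, as for 23.6% of all genes. The genes were listed with earlier results of these arrays known, so these counts describe the family and do not show that it stands apart from other genes.

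**Figure D1:**
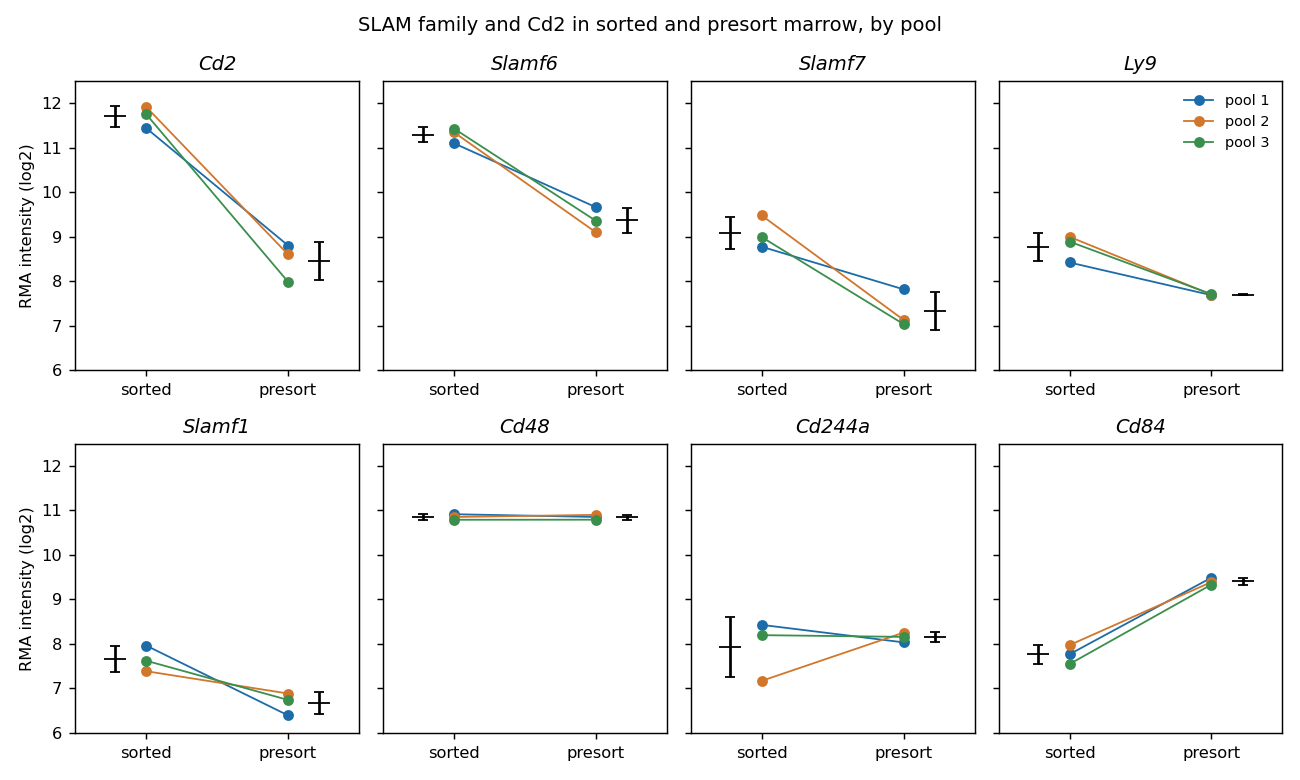
Level of each of the 8 genes (y axis, log2 RMA intensity) in the sorted and presort sample of each pool, with lines joining samples of 1 pool and black bars for the group mean ± SD (n = 3). Cd2 has the steepest lines, Cd48 has flat ones, Cd84 is the gene whose 3 sorted samples all lie below the presort ones, and the lines of Cd244a cross.

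Every sorted array had a wider RNA quality gap than every presort array, and the gap varied more among sorted arrays. The RNA quality gap, the level at the 3' minus that at the 5' control probe set of beta-actin, was 3.17, 1.54 and 1.43 in sorted replicates 1, 2 and 3, against 1.11, 0.95 and 0.81 in presort replicates 1, 2 and 3 (log2; two-sided exact permutation test, p = 0.1, the smallest that 3 against 3 allow). The test compared the group means, 2.05 in sorted and 0.96 in presort samples, and not the spread. In the same order the Gapdh gap was 3.84, 2.13 and 2.44 in sorted samples, against 1.99, 1.61 and 1.75 in presort samples. The gap thus ran along with the comparison of sorted and presort samples. Within its group sorted replicate 1 stood apart, so the counts were repeated without it. Without that array 5 of the 8 genes rose and 1 fell, and these were the same genes, with differences of 3.37 for Cd2, 2.02 for Slamf6, 1.91 for Slamf7, 1.25 for Ly9, 0.83 for Slamf1 and -1.65 for Cd84. Over all 18193 genes, limma without sorted replicate 1 called 2608 higher and 3256 lower. Of the 14 probe sets 7 were again higher and 1 lower, and the share of all probe sets without that array was not computed. Again 5 genes lay above and 1 below all presort arrays, as 27.6% and 27.3% of all genes then did. The B cell markers higher were again 9 of 9, and the T cell and NK cell markers lower were 1 each.

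Cd2, an adhesion and costimulatory receptor of T, NK and mouse B cells, had the highest difference of the 8 genes. Its level was 11.44, 11.92 and 11.76 in sorted replicates 1, 2 and 3, against 8.80, 8.60 and 7.99 in presort replicates 1, 2 and 3. The groups did not overlap, and the gap between the lowest sorted and the highest presort array was wider than the range within either group. Cd2 rose by 3.24 ± 0.22 (SE, log2), or 9.47-fold (limma adjusted p = 3.2e-05), with differences of 2.64, 3.32 and 3.77 in pools 1, 2 and 3. Over the 18193 genes ordered by difference, Cd2 stood at place 32 from the top.

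Its shared ligand Cd48 was at nearly the same level in both groups. Cd48 had 10.92, 10.85 and 10.79 in sorted replicates 1, 2 and 3, against 10.85, 10.90 and 10.79 in presort replicates 1, 2 and 3. The ranges overlapped almost entirely, with a group SD of 0.062 in sorted and 0.054 in presort samples. The difference was 0.0037 ± 0.10 (SE, log2; limma adjusted p = 0.986), with a 95% interval of -0.23 to 0.24, which corresponds to 0.851-fold to 1.18-fold. Differences in single pools were 0.061, -0.048 and -0.0016.

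Cd244a, the other receptor of Cd48 and best known from NK cells, did not pass the test either, with a wider interval. It had 8.43, 7.17 and 8.20 in sorted replicates 1, 2 and 3, against 8.04, 8.26 and 8.16 in presort replicates 1, 2 and 3. Sorted replicate 2 lay below all other arrays, while sorted replicates 1 and 3 lay close to the presort arrays. The difference was -0.22 ± 0.30 (SE, log2; limma adjusted p = 0.665; 95% interval -0.91 to 0.47), and the pools disagreed in sign, at 0.39, -1.09 and 0.04 in pools 1, 2 and 3. A second probe set of Cd244a gave -0.28 ± 0.15 (limma adjusted p = 0.226 over all probe sets) with pool differences of 0.10, -0.47 and -0.46.

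Slamf6, a self-binding receptor of B, T and NK cells known in mice as Ly108, rose at each of its 3 probe sets. At the brightest it had 11.10, 11.35 and 11.43 in sorted replicates 1, 2 and 3, against 9.66, 9.10 and 9.36 in presort replicates 1, 2 and 3. The groups were separated by more than the spread within either. The rise was 1.92 ± 0.17 (SE, log2), or 3.79-fold (limma adjusted p = 8.9e-05), and 1.44, 2.25 and 2.07 in pools 1, 2 and 3. The other probe sets gave larger rises, of 2.43 ± 0.22 and 3.43 ± 0.44 (limma adjusted p = 0.000191 and 0.000957 over all probe sets), so the brightest gave the lowest estimate, and the mean of the 3 rose by 2.59.

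Slamf7, a self-binding receptor of NK cells that is also used to mark plasma cells, rose by 1.75 ± 0.25 (SE, log2), or 3.38-fold (limma adjusted p = 0.00107) at its only probe set. It had 8.78, 9.48 and 8.99 in sorted replicates 1, 2 and 3, against 7.82, 7.13 and 7.03 in presort replicates 1, 2 and 3. Presort replicate 1 was the highest of its group and sorted replicate 1 the lowest of its own, so the difference was 0.96 in pool 1 and 2.35 and 1.96 in pools 2 and 3.

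Ly9, the self-binding receptor also called SLAMF3, rose by 1.07 ± 0.16 (SE, log2), or 2.10-fold (limma adjusted p = 0.00131) at its only probe set. Its level was 8.42, 8.999 and 8.89 in sorted replicates 1, 2 and 3, against 7.69, 7.70 and 7.71 in presort replicates 1, 2 and 3. The presort arrays were almost equal, and sorted replicate 1 lay nearest to them. The differences were 0.74, 1.30 and 1.18 in pools 1, 2 and 3.

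Slamf1, the founding member, which binds itself and in mice marks blood stem cells, had the smallest of the 5 rises and the least stable one. It had 7.96, 7.39 and 7.62 in sorted replicates 1, 2 and 3, against 6.39, 6.89 and 6.74 in presort replicates 1, 2 and 3. The groups did not overlap, and the difference was 1.57, 0.50 and 0.88 in pools 1, 2 and 3. The rise was 0.99 ± 0.19 (SE, log2), or 1.98-fold (limma adjusted p = 0.00438). The call missed the threshold when pool 3 was left out (1.04, limma adjusted p = 0.0501) and with the RNA quality gap in the model (0.73, limma adjusted p = 0.0512). Its other 2 probe sets were dimmer and did not pass, with differences of 0.61 ± 0.20 and 0.36 ± 0.16 (limma adjusted p = 0.0603 and 0.160 over all probe sets), although at both the sorted arrays lay above the presort arrays, and the mean of the 3 rose by 0.65.

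Cd84, a self-binding receptor found on B cells and also on monocytes, mast cells and platelets, moved the other way. It had 7.77, 7.97 and 7.55 in sorted replicates 1, 2 and 3, against 9.49, 9.39 and 9.33 in presort replicates 1, 2 and 3. Every sorted array lay below every presort array by more than the range of either group. Cd84 stood at -1.64 ± 0.13 (SE, log2), or 3.12-fold lower (limma adjusted p = 6.4e-05), with -1.72, -1.42 and -1.79 in pools 1, 2 and 3. A second, dimmer probe set gave -0.89 ± 0.36 and did not pass (limma adjusted p = 0.110 over all probe sets); there pool 2 stood at 0.05, and pools 1 and 3 at -1.38 and -1.34. Of the 14 probe sets of the 8 genes 7 were higher, 1 was lower and 6 did not pass, where 13.5% of all probe sets were higher and 15.3% lower, 28.8% in either direction.

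**Figure D2:**
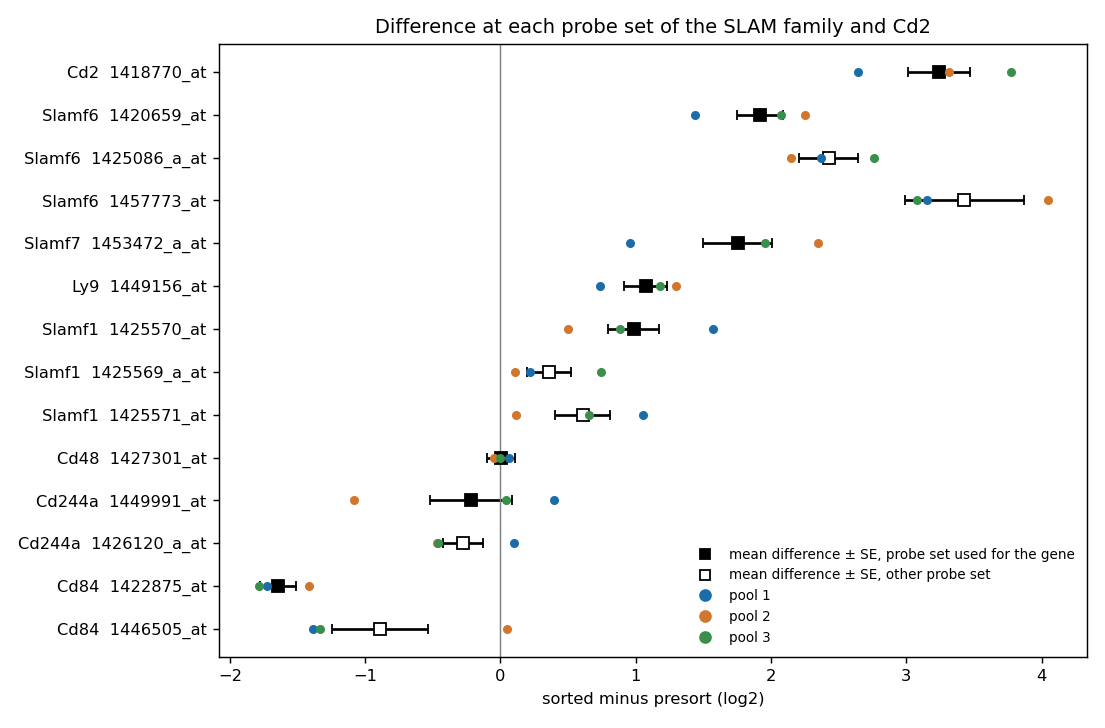
Difference between sorted and presort samples (x axis, log2) at each of the 14 probe sets, with squares for the mean difference ± SE and coloured points for the 3 pools. The 3 probe sets of Slamf6 lie at 1.92, 2.43 and 3.43, those of Slamf1 between 0.36 and 0.99, and those of Cd84 at -1.64 and -0.89, with pool 2 near 0 at the second.

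Of the 8 genes, 7 lie side by side on chromosome 1 (GRCm38.p6), in the order Cd244a, Ly9, Slamf7, Cd48, Slamf1, Cd84 and Slamf6, and Cd2 lies on chromosome 3. The block runs from chr1:171558718 at the start of Cd244a to chr1:171948958 at the end of Slamf6, and no other gene with a value stood between them. Genes that did not pass (Cd244a and Cd48) and the gene that fell (Cd84) were interspersed along the block with the 4 that rose. Over all genes 14.5% were called higher and 18.1% lower. Of the 10 measured genes on each side, 20 in all, 3 rose and 0 fell (limma, adjusted p under 0.05), with a median difference of 0.03. The counts were the same, 3 higher and 0 lower, at an unadjusted p under 0.05. The 3 were Vangl2, a planar cell polarity gene next to Slamf6, at 1.39 ± 0.22 (SE, log2; limma adjusted p = 0.00167), Dedd, a death effector domain gene, at 0.93 ± 0.14 (limma adjusted p = 0.0014), and Arhgap30, a GTPase-activating protein gene, at 0.55 ± 0.13 (limma adjusted p = 0.0121). Without probe sets ending in _x_at or _s_at Dedd stood at 0.15 and did not pass, while averaging all its probe sets gave 0.47. Arhgap30 missed without pool 2 or without pool 3 (limma adjusted p = 0.106 and 0.121), without presort replicate 2 or 3 (0.0555 and 0.0559) and with the RNA quality gap in the model (0.0798). The other 17 lay between -0.41 and 0.38. With pools as a block 1 of them, Pea15a, a death effector domain gene at -0.41, passed as well (limma adjusted p = 0.0298).

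**Figure D3:**
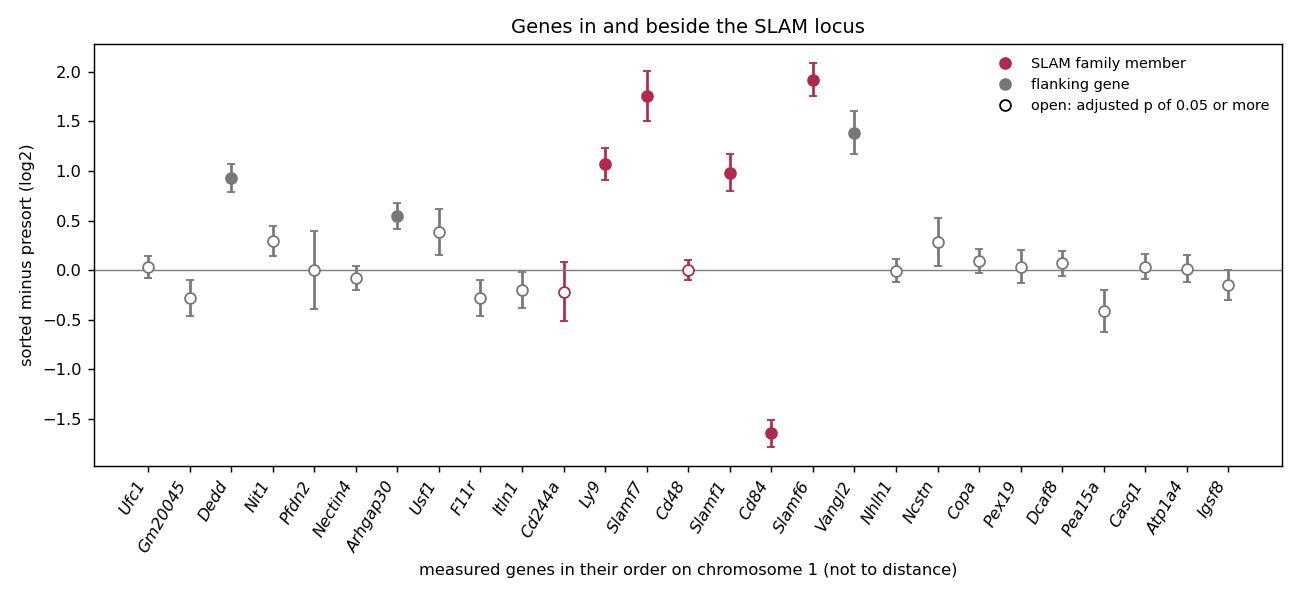
Difference between sorted and presort samples (y axis, log2, mean ± SE) for the 7 SLAM genes of chromosome 1 (red) and the 10 measured genes on each side (grey), in genome order and not to distance; filled points passed the test. Red points range from -1.64 for Cd84 to 1.92 for Slamf6, while 17 of the 20 grey points are open.

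The bases around the start of 3 of these neighbours are shown because the genes lie in 1 block and yet differed in direction: Slamf6 and Slamf1, which rose, and Cd84, which fell. Each covers 250 bases before to 50 after a transcript start in RefSeq (GRCm38.p6), 5′ to 3′, which lies within 4 bases of the annotated start of the gene. RefSeq windows were matched for 6 of the 8 genes, but those of Cd244a, Cd48 and Slamf7 are set on starts 475, 747 and 4038 bases inside the gene. Those windows were searched for motifs as well, but they and their matches are not shown. Capitals mark matches on either strand to 6 short motifs, and no matches overlapped. They were GAGGAA for PU.1, TGTGGT for Runx factors, CACCTG for E proteins, AGATAA for Gata factors, ATTTGCAT for octamer factors and CCCNNGGG for the core of the Ebf1 site.
Slamf6, chr1:171917212-171917511, plus strand: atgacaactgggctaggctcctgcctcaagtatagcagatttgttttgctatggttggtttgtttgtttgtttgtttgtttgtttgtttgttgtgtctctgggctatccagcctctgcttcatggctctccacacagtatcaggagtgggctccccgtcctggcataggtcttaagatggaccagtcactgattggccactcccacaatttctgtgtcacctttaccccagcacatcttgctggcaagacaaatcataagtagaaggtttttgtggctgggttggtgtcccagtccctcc
Slamf1, chr1:171766882-171767181, plus strand: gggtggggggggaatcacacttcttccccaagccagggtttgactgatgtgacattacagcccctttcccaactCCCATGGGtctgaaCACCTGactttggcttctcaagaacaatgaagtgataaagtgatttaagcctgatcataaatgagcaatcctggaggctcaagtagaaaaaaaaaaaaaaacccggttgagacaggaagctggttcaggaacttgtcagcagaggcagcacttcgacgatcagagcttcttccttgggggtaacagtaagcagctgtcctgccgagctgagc
Cd84, chr1:171839447-171839746, plus strand: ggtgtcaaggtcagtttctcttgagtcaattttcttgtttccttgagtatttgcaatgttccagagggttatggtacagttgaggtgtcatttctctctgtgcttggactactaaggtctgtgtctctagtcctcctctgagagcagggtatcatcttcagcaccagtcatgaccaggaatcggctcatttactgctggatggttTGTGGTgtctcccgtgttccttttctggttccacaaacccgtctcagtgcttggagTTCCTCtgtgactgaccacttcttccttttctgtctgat
Slamf6 held none of these letters. Slamf1 held CACCTG 162 bases before its start, a motif found in 20.3% of 32544 mouse promoter windows of this length, and CCCNNGGG 176 bases before it (13.7% of windows). Cd84 held TGTGGT 45 bases before its start and GAGGAA, as its reverse complement, 11 bases after it (counted from the transcript start). GAGGAA is found in 28.1% of the windows and TGTGGT in 16.7%. None of the 3 windows held AGATAA (11.2% of all windows) or ATTTGCAT (1.75%).

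Among the other members of the family, Slamf9 rose and Slamf8 did not pass. Slamf9 had 9.86, 9.94 and 9.54 in sorted replicates 1, 2 and 3, against 7.93, 7.57 and 7.03 in presort replicates 1, 2 and 3, a rise of 2.27 ± 0.23 (SE, log2), or 4.83-fold (limma adjusted p = 0.000173). The groups did not overlap and each pool showed the rise. Slamf8, a gene of myeloid cells, stood at -0.27 ± 0.15 (limma adjusted p = 0.239), with means of 4.58 in sorted and 4.85 in presort samples, low on the scale in both.

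Adaptors and enzymes that work at the tails of SLAM receptors moved in both directions. Of 21 listed genes 17 had a value, of which 5 rose, 5 fell and 7 did not pass, with a median difference of -0.10. With pools as a block 6 rose. Over all genes 14.5% rose and 18.1% fell in the main fit, which is also the background for the lists that follow. Sh2d1a, which encodes SAP, was low on the scale in both groups, with means of 4.07 in sorted and 4.34 in presort samples, and did not pass at -0.27 ± 0.13 (limma adjusted p = 0.171). Sh2d1b1 and Sh2d1b2, which encode the related adaptors EAT-2 and ERT, had no value here, and Fyn, the kinase that SAP recruits, stood at 0.10 ± 0.24 (limma adjusted p = 0.811), and at 0.67 with the RNA quality gap in the model, where it passed (limma adjusted p = 0.0144).

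The called genes with the largest differences were 2 that fell and 2 that rose. Lcp2, the adaptor SLP-76 of T cell and myeloid receptor signalling, had 7.75, 7.98 and 7.77 in sorted replicates 1, 2 and 3, against 10.59, 10.58 and 10.53 in presort replicates 1, 2 and 3, and stood at -2.74 ± 0.11 (SE, log2), or 6.67-fold lower (limma adjusted p = 1.46e-05). Sh3bp2, an adaptor that binds the human counterpart of Cd244a, stood at -1.05 ± 0.15 (limma adjusted p = 0.00104). Csk, which restrains Src family kinases, rose by 1.33 ± 0.28 (limma adjusted p = 0.00733), and Plcg1, a phospholipase that releases calcium, by 1.26 ± 0.20 (limma adjusted p = 0.00166). The mean of the probe sets of Plcg1 rose by 0.37 (limma adjusted p = 0.0168). Csk missed the threshold when pool 3 was left out (limma adjusted p = 0.101) and with the RNA quality gap in the model (limma adjusted p = 0.0832), and without pool 3 the list held 1 rise in place of 5.

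Of the 5 proteins listed as partners of the Cd2 tail, 1 gene rose and 1 fell. Cd2ap, which links Cd2 to the cytoskeleton, rose by 1.09 ± 0.14 (SE, log2; limma adjusted p = 0.000528), and Pstpip1, which couples Cd2 to the actin regulator Was, stood at -1.20 ± 0.11 (limma adjusted p = 9.5e-05). Sh3kbp1, a relative of Cd2ap, stood at 0.48 (limma adjusted p = 0.0535), Cd2bp2 at 0.39 (0.114) and Was at -0.24 (0.270). With pools as a block Sh3kbp1 passed as well (limma adjusted p = 0.0176), so that 2 genes rose.

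In mouse macrophages Slamf1 binds a lipid kinase complex on phagosomes, and of its 4 listed genes 2 rose. Pik3r4 rose by 1.18 ± 0.29 (SE, log2; limma adjusted p = 0.0151) and Pik3c3, the catalytic subunit, by 0.57 ± 0.17 (limma adjusted p = 0.0328), while Uvrag stood at 0.60 (limma adjusted p = 0.0588) and Becn1 at 0.10 (0.585). With the RNA quality gap in the model neither passed, at 0.51 for Pik3r4 (limma adjusted p = 0.105) and 0.33 for Pik3c3 (0.283). With pools as a block Uvrag passed (limma adjusted p = 0.0155). Pik3c3 also missed without any 1 of sorted replicates 1 and 3, the 3 presort arrays, pool 1 or pool 3, and Pik3r4 without presort replicate 2, presort replicate 3 or pool 3. Becn1 turned to -0.42 without probe sets ending in _x_at or _s_at (limma adjusted p = 0.0275).

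**Figure D4:**
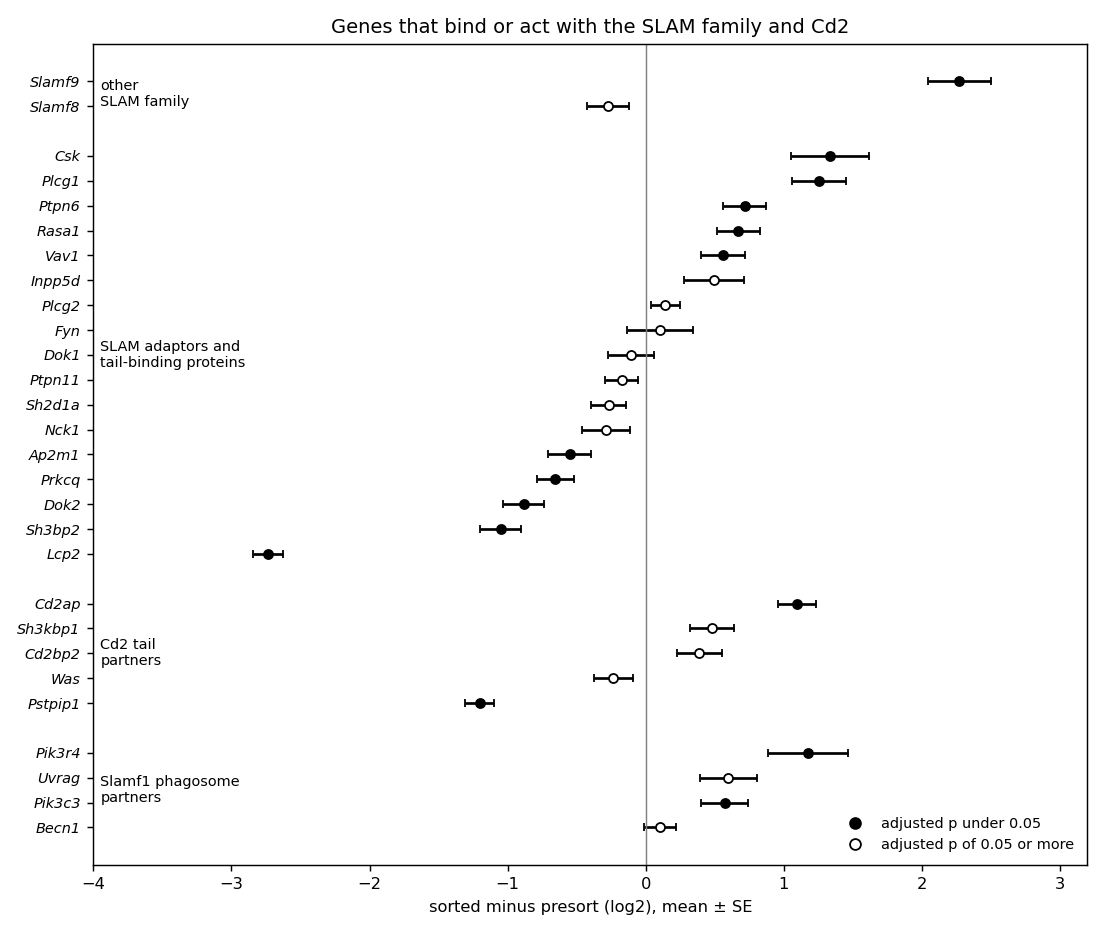
Difference between sorted and presort samples (x axis, log2, mean ± SE) for other SLAM family genes, SLAM adaptors and tail-binding proteins, Cd2 tail partners and Slamf1 phagosome partners; filled points passed the test. The values run from -2.74 for Lcp2 to 2.27 for Slamf9, and the adaptor list spreads to both sides of 0.

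Among markers of cell types that carry these receptors, the B cell markers moved together. All 9 measured B cell markers rose, with a median of 2.35, among them Cd79b, a chain of the B cell receptor, at 2.57 and Ms4a1, which encodes CD20, at 2.27. Their summed intensity was 71483 to 80508 in sorted samples and 10620 to 21503 in presort samples. With the RNA quality gap in the model 8 of the 9 rose. Of 12 T cell markers 0 rose and 2 fell (limma; median -0.24; 0 higher and 3 lower at an unadjusted p under 0.05), with summed intensities of 799 to 1186 in sorted samples and 1081 to 1506 in presort samples. The brightest were Lat, which fell, at -0.57, and Cd4, which did not pass, at -0.30. Of 7 NK cell markers 0 rose and 2 fell (limma; median -0.51; 0 higher and 4 lower at an unadjusted p under 0.05), and the sums were 612 to 1622 in sorted and 1500.5 to 1588 in presort samples. The 2 that fell were Ncr1 at -0.67 and Eomes at -0.51, while the brightest, Gzma at -1.29 and Klrd1 at -0.93, did not pass (limma adjusted p = 0.0948 and 0.0951) and overlapped. The T cell and NK cell counts of lower genes each ran from 0 to 4 over the alternative settings, and 18.1% of all genes were lower. The rises of Cd2, Slamf6, Slamf7 and Ly9 thus stood beside higher B cell markers and beside T and NK cell markers of which none rose, and the part of any cell type in them was not tested.

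Plasma cell markers, which bear on Slamf7, were split: 4 of 7 rose and 1 fell, or 2 with pools as a block (median 1.39). Irf4, which rose, stood at 2.80 and Xbp1, which did not pass, at -0.02. The 1 that fell in the main fit was Jchain, at -2.51 (limma adjusted p = 2.3e-05), with every sorted array below every presort array. The sums were 17508 to 18586 in sorted and 12597 to 14170 in presort samples. Of 8 measured stem and progenitor markers 5 fell and 0 rose (median -1.003), with Kit at -3.28 and Flt3 at -0.80. The sums were 636 to 789 in sorted and 2241 to 2581 in presort samples. The count lower was 7 without sorted replicate 1, 6 with pools as a block and 4 without pool 2. The part of plasma, stem or progenitor cells in the rises of Slamf7 and Slamf1 was not tested.

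Among cell types that carry Cd84 or Cd244a, all 7 monocyte and macrophage markers fell (median -2.79; Csf1r at -2.79, Cd14 at -1.42), with sums of 1475 to 4073 in sorted and 13797 to 18050.3 in presort samples. All 6 basophil and mast cell markers fell (median -2.59; Hdc at -2.57, Mcpt8 at -3.38), with sums of 647 to 1250.2 in sorted and 5294 to 7502 in presort samples. Of 6 megakaryocyte and platelet markers 3 fell (median -1.52; Itga2b, which fell, at -1.30, and Pf4, which did not pass, at -1.69), or 5 with pools as a block, with overlapping sums of 663 to 2429 in sorted and 1336 to 6673 in presort samples. Among other marrow cell types, all 8 neutrophil markers fell (median -1.87, lowest -3.49). The brightest, Ngp at -0.69 and S100a8 at -0.81, had presort means of 15.07 and 15.01, near the scale's top of 15.23. Of 6 erythroid markers 5 fell (median -2.17, with Alas2 at -1.16 and Slc4a1 at -1.26). Of 6 dendritic cell markers 3 fell and 1 rose (median -0.54; Tcf4 at 1.42, Flt3 at -0.80). The sums were 51354 to 95198 in sorted and 165108 to 173887 in presort samples for neutrophil markers. They were 7803 to 18806 in sorted and 40027 to 42274 in presort samples for erythroid markers, and 2272 to 2890.2 in sorted and 1603 to 1862 in presort samples for dendritic cell markers. Of the dendritic cell markers Tcf4, which rose, was the brightest, with means of 11.04 in sorted and 9.62 in presort samples. It thus weighs most in the sums of that list. With the RNA quality gap in the model, 5 monocyte and macrophage, 6 basophil and mast cell and 1 megakaryocyte and platelet markers fell. In that setting 5 neutrophil, 3 erythroid and 1 dendritic cell markers fell. Without pool 3 the counts lower were 5 for monocyte and macrophage and 5 for neutrophil markers, and without pool 2 the dendritic cell count was 0. B cells carry Cd84 as well, and all 9 measured B cell markers rose (median 2.35), or 8 with the RNA quality gap in the model. The part of any cell type in the fall of Cd84 was not tested.

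**Figure D5:**
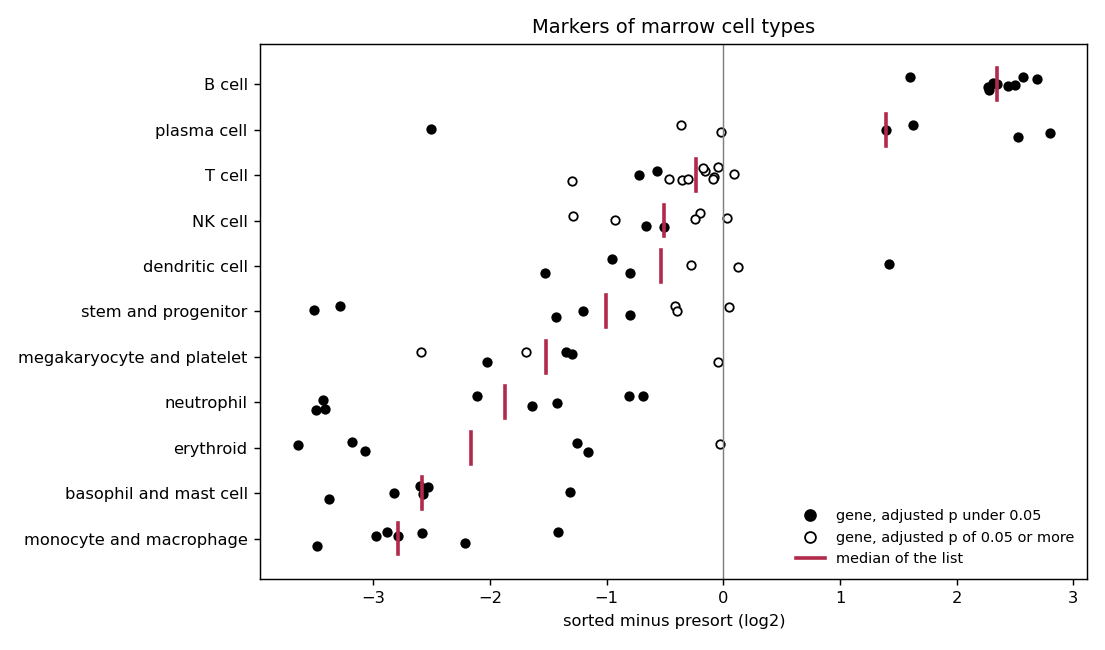
Difference between sorted and presort samples (x axis, log2) of each measured marker gene, by cell type, with red bars for list medians; filled points passed the test. The 9 B cell markers lie to the right, with a median of 2.35, and the T cell and NK cell markers lie no further right than 0.09, with medians of -0.24 and -0.51.

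The genes most like Cd2 over the 6 arrays, by the distance between log2 values after each gene's own mean was subtracted, were Dennd5b (distance 0.17), Diras2 (0.46) and Hdac9 (0.48), with differences of 3.15, 3.10 and 3.17. Those most like Cd84 were Rab31 (0.21), Nup37 (0.22) and Evi2a (0.23), at -1.68, -1.61 and -1.65. The likeness was taken over the same 6 arrays and is a description.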

How the data were processed

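RNA of 6 bone marrow samples, 3 sorted and 3 presort, was extracted with Trizol and labelled with biotin from the 3' end with the GeneChip 3' IVT Express Kit, per the labels' protocols. The authors deposited linear intensities; RMA is the tool named in the submitters' processing notes, with no version. The arrays share 1 distribution (sorted values agree within 0.181%), so a change in total RNA per cell leaves no trace, and degraded RNA lowers 5' probe sets most. Control probe sets (64), those with several symbols (932) and those with none were left out. Symbols come from the platform annotation; positions and promoters come from RefSeq (GRCm38.p6). Some listed genes had no value here, and the renin gene is not reported here.

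Log2 of the intensities was fitted by limma 3.58.1 under R 4.3.3 (lmFit, then eBayes; sorted minus presort, two-sided, no filter on dim genes), with Benjamini-Hochberg adjustment over 18193 genes, or 34945 probe sets where these are named, and a threshold of 0.05. Plots were made with matplotlib 3.10.9 under Python 3.11.15. The fit was also run on simulated data with independent noise, no pool effect and no RNA quality gap between groups. That run checked the code and does not bear on the calls made here. The members and lists were chosen with earlier results of these data known. The text names every member and its probe sets, up to 4 called genes with the largest differences per pathway list and among the neighbours, all genes of lists of 5 or fewer, Sh2d1a, Sh2d1b1 and Sh2d1b2, the 2 brightest markers per cell type, and the 3 genes most like the members with the highest and lowest difference. Fyn, Pea15a, Ncr1, Eomes and Jchain fall outside this rule and were chosen after their values were seen.

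Samples of one number share 1 marrow pool, as the labels state, and are therefore pairs. The main fit left this pairing out, because the labels state no fit. The correlation across genes of partners' deviations from their group means was 0.39 in pool 1, 0.20 in pool 2 and -0.03 in pool 3. Sorted replicate 2 correlated more with presort replicate 3 (0.25) than with its partner, and sorted replicate 3 more with presort replicate 2 (0.18). The fit with this replicate block is an alternative, as are leaving out each array or pool, averaging all probe sets of a gene, dropping probe sets that end in _x_at or _s_at, quantile normalization over the named genes, median centring, leaving out the dimmest 33.3% of genes, a robust prior with an intensity trend, limma's array weights, and the RNA quality gap of beta-actin as a covariate.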

Additional observations from a re-analysis of the deposited data

How the results depend on the processing

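Cd2, Slamf6, Slamf7, Ly9 and Cd84 kept their direction and stayed past the threshold in all 18 alternatives, with differences of 2.98 to 3.54, 1.76 to 2.59, 1.46 to 2.15, 0.96 to 1.40 and -1.76 to -1.27. With arrays or pools left out Slamf1 ran from 0.69 to 1.23 (limma adjusted p from 0.00416 to 0.0501). With the RNA quality covariate it missed at 0.73. Cd48 and Cd244a were not called in any alternative and have no settled sign. With arrays or pools left out Cd48 ran from -0.027 to 0.035 and Cd244a from -0.52 to 0.22. Cd48 stood at -0.010 with array weights, -0.062 with the covariate and 0.23 with median centring (limma adjusted p = 0.129), and Cd244a at 0.0066 with quantile normalization, 0.0096 with median centring and -0.64 with the covariate (limma adjusted p = 0.251). Leaving out presort replicate 3 put Cd48 at -0.025 and leaving out pool 1 at -0.025; leaving out sorted replicate 2 put Cd244a at 0.16. Pairing by pool, with the replicate block, changed no member's call (Slamf1 adjusted p = 0.00987).

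The signs near 0 depend on the centring: median centring moved the median of all genes by about 0.23, to 66.7% of called genes higher against 44.4% as deposited, with 5162 genes higher; leaving out arrays or pools gave 1544 to 2608 higher genes.
Small lists changed most. The count of SLAM adaptors higher was 1 to 6 with arrays or pools left out 3 with the covariate, 6 with the replicate block and 7 with median centring, and the count lower was 3 to 5 with arrays or pools left out. Cd2 tail partners higher were 2 with the replicate block, quantile normalization, the dimmest 33.3% left out or the trend, 3 with the mean of probe sets, median centring or array weights, and 1 to 2 with arrays or pools left out. Slamf1 phagosome partners higher were 0 to 3 with arrays or pools left out, 0 with the covariate, and 1, with 1 lower, without _x_at and _s_at probe sets, where Becn1 stood at -0.42. With arrays or pools left out Becn1 ran from -0.0037 to 0.17 and Fyn from -0.10 to 0.39. SLAM locus neighbours higher were 5 with median centring; lower ones were 1 with the replicate block and 0 to 1 with arrays or pools left out. The causes were not tested. No detection calls were used, so low levels carry no limit of detection.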
